A study of Mus musculus with 14 samples.

Results

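The proteasome genes are the 50 protein-coding genes, of 39017 gene identifiers in the count table, whose mouse symbol is Psm followed by a letter from a to g and a number. All 50 passed the filter on low counts and were tested, among 21298 genes in all. Another 3 genes with symbols of this form are not annotated as protein-coding and were left out. The rule also takes in Psmc3ip, a meiotic recombination factor named for its binding partner, which is no subunit and was kept as a class of its own. The study immunoprecipitated polysomes from hippocampal parvalbumin (PV) interneurons by translating ribosome affinity purification (TRAP) and sequenced the bound RNA. The male mice, on a C57BL/6 background, carried PV-Cre and a Cre-dependent EGFP-L10a transgene, so that tagged ribosomes were made only in cells with Cre. Mice were defeated daily by CD-1 aggressors (chronic social defeat stress, CSDS) and then sorted by a social interaction test into resilient and susceptible mice, or were never defeated and housed in pairs. The mice were young adults when the behavioural experiments began, and all groups shared the transgenes. Each TRAP library came from both hippocampi of 1 mouse, with 4 non-defeated, 4 resilient and 3 susceptible libraries. Total RNA of hippocampus before the immunoprecipitation (input) gave 3 libraries from non-defeated mice whose sample numbers differ from those of the TRAP libraries. Because Cre marks every PV-expressing cell of the dissected tissue, the TRAP libraries average over PV cell types, and some RNA of other cells is always carried through the immunoprecipitation.

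The 26S proteasome is the cell's main machine for degrading proteins marked with ubiquitin. Its barrel-shaped 20S core particle has outer rings of alpha subunits, encoded by Psma genes, and inner rings of beta subunits, encoded by Psmb genes, of which Psmb5, Psmb6 and Psmb7 encode the chymotrypsin-like, caspase-like and trypsin-like proteases. The 19S regulatory particle caps the core. It holds a ring of ATPases (Psmc genes) that unfolds substrates, and non-ATPase subunits (Psmd genes) that bind ubiquitin, remove it and hold the particle together. In immune cells, and elsewhere after interferon, Psmb8, Psmb9 and Psmb10 replace Psmb5, Psmb6 and Psmb7 in the immunoproteasome. In thymic epithelium Psmb11 takes the place of Psmb5. Psme genes encode other caps that activate the core, Psmf1 encodes an inhibitor, and the Psmg genes with Psmd5, Psmd9 and Psmd10 encode chaperones of assembly. In neurons proteasomes work in the soma, axons and synapses, where protein turnover takes part in plasticity.

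Total counts ranged from 64110214 to 94726962 per library. The 6 PV interneuron markers summed to 3088 to 4265 CPM (counts scaled by library size and TMM factor) in the TRAP libraries and to 517 to 616 in the input. The TRAP libraries were thus enriched for markers of the cell type their labels name. Markers of other interneurons were also higher in sum, at 421 to 620 CPM in non-defeated TRAP and 333 to 361 in the input. Of these Sst and Npy were higher in TRAP (log2 fold changes 1.61 and 2.79), and Vip, Cck and Calb2 lower (-2.29, -0.82 and -1.42). Markers of other cells were also present in the TRAP libraries, with no defining marker under 0.1 CPM in every one. The 4 red blood cell markers summed to 885 to 1217 CPM in the susceptible, 127 to 588 in the resilient and 115 to 240 in the non-defeated TRAP libraries. In bulk libraries fewer cells of a type and less RNA per cell cannot be told apart, and a TRAP level counts ribosome-bound RNA, not protein or proteasome activity.

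In non-defeated PV neurons, levels per length (RPKM, CPM divided by exon length in kilobases) spanned several orders of magnitude among the members. The highest was Psmb5 at 480 ± 13.6 RPKM (SD, n = 4), ahead of the ATPase Psmc5 at 284 ± 12.8 and Psmb6 at 210 ± 11.1. Of the alpha genes Psma6 was highest, at 157 ± 3.59 RPKM. Among the non-ATPase genes Psmd2, a large scaffold of the 19S base, was highest at 84.4 ± 19.6 and Psmd11 lowest at 22.8 ± 1.33, and Psmc6 was the lowest ATPase gene at 25.4 ± 2.61. The immunosubunits fell far apart. Psmb10 stood at 68.6 ± 7.76 RPKM, above the constitutive Psmb7 at 53.6 ± 2.3, while Psmb8 stood at 0.82 ± 0.209 and Psmb9 at 0.286 ± 0.0531. Of the activators, Psme3 was highest at 51.2 ± 1.97 RPKM and Psme4 lowest at 1.71 ± 0.0635. Of the chaperones, Psmg4 was highest at 28.5 ± 3.83 and Psmd9 lowest at 7.12 ± 0.272. The testis-specific alpha subunit Psma8, at 0.369 ± 0.085 RPKM, and the thymic Psmb11, at 0.0131 ± 0.00867, were the lowest of their classes. Lengths were those of all annotated exons of a gene merged, so a gene with many alternative exons has a lower RPKM than its main transcript would give.

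The comparison of non-defeated TRAP with input asks how proteasome RNA on the ribosomes of PV neurons compares with that of the whole hippocampus. Most proteasome genes were higher in TRAP than in input. The libraries differ both in cell type and in RNA fraction (immunoprecipitated ribosome-bound RNA against total RNA), and these cannot be told apart here. In edgeR's quasi-likelihood test 33 of the 50 members rose at an adjusted p under 0.05, where 27.4% of all genes tested did, and 1 fell, where 27.6% of all genes did. At an unadjusted p under 0.05 these counts were 33 and 3, beside 29.5% and 30.4% of all genes, and the second was 1 without input library 12 or 14. The median log2 fold change was 0.42 over the members and -0.04 over all genes. The summed level of the 50 members was 7543 ± 169 CPM (SD, n = 4) in TRAP and 5664 ± 44.4 (n = 3) in the input. The TRAP and input libraries did not overlap for 37 members that were higher, against 29.5% of all genes, nor for 3 members that were lower, against 32.5%.

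**Figure D1:**
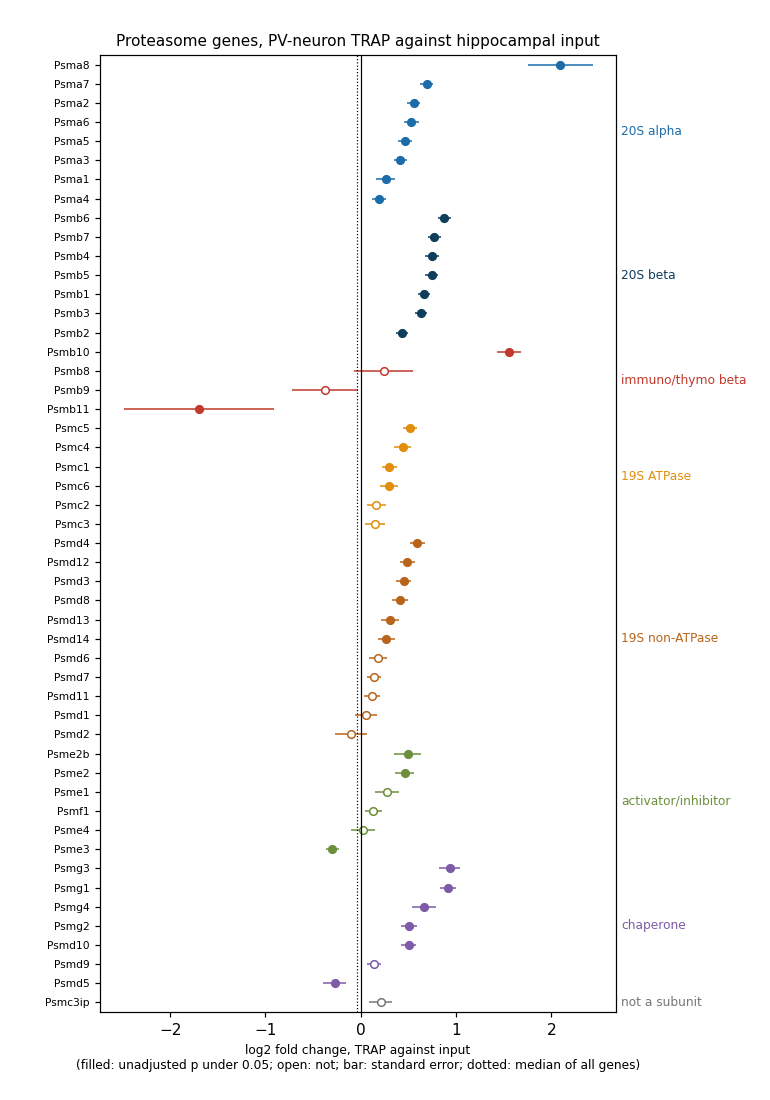
Log2 fold change of each proteasome gene in non-defeated PV TRAP (n = 4) against non-defeated input (n = 3) on the horizontal axis. Genes are grouped by class, and bars give the standard error derived from edgeR's F statistic. All 14 constitutive 20S genes lie above 0, with a median of 0.59, and Psmb10 at 1.55 and the low-count Psma8 at 2.10 are farthest to the right.

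The rise was spread over the whole core particle. All 14 constitutive 20S genes (Psma1 to Psma7 and Psmb1 to Psmb7) were higher, with log2 fold changes of 0.19 to 0.87 and a median of 0.59, and in each of them every TRAP library lay above every input library. The beta ring had a median of 0.74 and the alpha ring, without Psma8, of 0.46. The 19S genes moved less, with a median of 0.30, and 10 of 17 rose. Core and regulatory genes are shown by library further down.

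The genes of the 3 constitutive proteases were among those that rose most. Psmb6 was at 419, 397, 369 and 388 CPM in the 4 TRAP libraries and at 222, 211 and 211 in the 3 input libraries. Psmb7 was at 194, 184, 175 and 181 CPM in TRAP and at 108, 104 and 109 in the input. Psmb5 was at 449, 426, 431 and 421 CPM in TRAP and at 263, 261 and 249 in the input. For all 3 genes the 2 sets of libraries were widely separated. The log2 fold changes were 0.87 ± 0.07 for Psmb6 (SE, edgeR adjusted p = 1.37e-07), 0.77 ± 0.07 for Psmb7 (adjusted p = 3.44e-07) and 0.74 ± 0.07 for Psmb5 (adjusted p = 6.87e-07). With a correction for gene length that was fitted to each library, Psmb5, the gene with the shortest merged exons of the 3, fell to 0.36 and still passed.

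Psmb10, the immunosubunit that takes the place of Psmb7, had the second smallest p of all members. It stood at 132, 124, 105 and 107 CPM in the TRAP libraries and at 38.7, 39.5 and 41.3 in the input. The input libraries lay close together and far below the lowest TRAP library. The log2 fold change was 1.55 ± 0.12 (SE, edgeR adjusted p = 1.72e-07), a 2.94-fold higher level. The other immunosubunits did not share this. Psmb8 was at 2.40, 2.10, 2.87 and 3.72 CPM in TRAP and at 2.10, 2.25 and 2.67 in the input, and the groups overlapped (log2 fold change 0.24 ± 0.31, adjusted p = 0.529). Psmb9 was at 0.851, 1.07, 0.961 and 1.30 CPM in TRAP and at 1.18, 1.42 and 1.49 in the input, again with overlap (log2 fold change -0.38 ± 0.35, adjusted p = 0.377). Psmb11 had 1 to 9 counts in each TRAP library and 8 to 31 in the input, and did not pass (adjusted p = 0.0806). Psmb8 and Psmb9 lie in the major histocompatibility region on chromosome 17 (GRCm38, 34197721 to 34201454 on the plus strand and 34181987 to 34187764 on the minus strand), and Psmb10 lies alone on chromosome 8 (105935735 to 105938444, minus strand). Exons of Psmb9 overlap those of Tap1 on the other strand, as do, among the members described, those of Psmb7 with Nek6, of Psmb8 with Gm20496 and of Psmd9 with Gm26745. The library kit does not mark strand, so reads of the shared bases cannot be assigned. The same holds for Psma4 with AY074887, Psmd3 with Gm12356 and Psme1 with Emc9. Psmb5, Psmg3 and Psme2b share exon bases with a gene on their own strand (Mir686, Gm26938 and 9930111J21Rik1).

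Each immunosubunit was set against the constitutive subunit it replaces, as a ratio of RPKM within each library. Psmb10 to Psmb7 was 1.37, 1.35, 1.21 and 1.18 in TRAP and 0.717, 0.759 and 0.758 in the input, above 1 in every TRAP library and below 1 in every input library. The place of the ratio relative to 1 rests on the merged exon lengths (1705 bases for Psmb10 and 3421 for Psmb7), and by CPM alone Psmb10 was below Psmb7 in every library. In the change of the ratio between groups these divisors cancel, but a length bias that differs between TRAP and input would not. The ratio was not recomputed with the length correction. Over the 14 alternatives the log2 fold change was 1.31 to 1.61 for Psmb10 and 0.745 to 0.861 for Psmb7. The mean ratios were 1.28 ± 0.0962 in TRAP and 0.745 ± 0.0242 in the input (SD). Psmb9 to Psmb6 went the other way, with 0.00137 ± 0.000281 in TRAP and 0.00326 ± 0.000465 in the input. Both had p = 0.0286 in a two-sided exact permutation test, the smallest that 4 against 3 libraries can give, and an adjusted p of 0.172 over the 12 ratio tests made. Psmb8 to Psmb5 was 0.00171 ± 0.000467 in TRAP and 0.00242 ± 0.000378 in the input (exact permutation p = 0.143, adjusted p = 0.429). In TRAP, Psmb8 and Psmb9 were thus a small fraction of a percent of their constitutive partners. Microglia markers, which mark cells that use both genes, summed to 22.3 to 29.7 CPM in the non-defeated TRAP libraries and 54.4 to 61 in the input, and their part in the Psmb8 and Psmb9 levels was not tested.

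**Figure D2:**
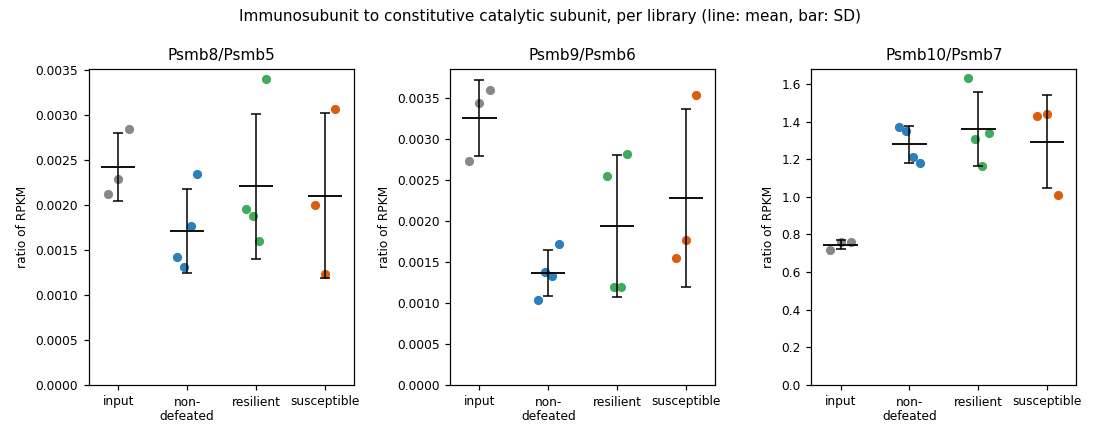
Ratio of RPKM of each immunosubunit gene to the constitutive catalytic gene it replaces (vertical axis, starting at 0) in every library of the 4 groups, with lines for means and bars for SD. Psmb10 to Psmb7 lies between 0.717 and 0.759 in the input and above 1 in all TRAP libraries, and for the other pairs the ratio stays under 0.004.

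Assembly chaperones were also higher in TRAP than in input, with 5 of 7 called. Psmg3 and Psmg1, chosen here after their values were seen, led them with log2 fold changes of 0.93 ± 0.11 and 0.92 ± 0.08 (SE; edgeR adjusted p = 6.42e-06 and 4.03e-07). Psmg1 stood at 36, 37, 33.9 and 34.2 CPM in TRAP and at 19.7, 17.3 and 19.2 in the input. Psmg4 rose by 0.67 ± 0.13 (adjusted p = 0.000468). The 2 not called were Psmd9 (0.14 ± 0.07, adjusted p = 0.135) and Psmd5, a chaperone of the regulatory particle base. Psmd5 was at 71.2, 78.5, 91.9 and 93.8 CPM in TRAP and at 105, 102 and 97.5 in the input, so that every TRAP library was lower, but its log2 fold change of -0.27 ± 0.12 did not pass (adjusted p = 0.0751). With the length correction Psmd5 was at -0.02 (adjusted p = 0.844), and it passed under 3 alternatives, with the 2 groups alone in edgeR or DESeq2 and with at least 10 counts in every library (adjusted p = 0.0458, 0.0399 and 0.0445).

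Among the 19S genes the ATPase Psmc5 rose by 0.52 ± 0.08 and the ubiquitin receptor Psmd4, chosen after its values were seen, by 0.59 ± 0.08 (edgeR adjusted p = 5.53e-05 and 2.45e-05). Psmd2 was the only 19S gene with a fold change below 0. Its TRAP libraries stood at 266, 279, 407 and 411 CPM, on both sides of the input at 375, 354 and 370 (log2 fold change -0.10 ± 0.17, adjusted p = 0.615). The 2 lower values came from the libraries with sample numbers 1 and 6 and the 2 higher from those numbered 9 and 11.

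Of the 6 activator and inhibitor genes, 2 rose and 1 fell. Psme3, which encodes the nuclear activator PA28 gamma, was the only member that fell. It was at 153, 146, 158 and 147 CPM in TRAP and at 191, 181 and 186 in the input, with a log2 fold change of -0.30 ± 0.07 (SE, edgeR adjusted p = 0.00166). The 2 that rose were Psme2, a subunit of the interferon-induced activator PA28, and Psme2b, by 0.46 ± 0.10 and 0.49 ± 0.14 (adjusted p = 0.00137 and 0.0073). Psme2b is a single-exon copy of Psme2 and the counting could have split reads between them, so the second value is uncertain. Their partner Psme1 was higher in every TRAP library by 0.28 ± 0.13 and did not pass (adjusted p = 0.0844). Psmf1 and Psme4 overlapped between the groups. Psma8 rose by 2.10 ± 0.34 (adjusted p = 0.000117) from 9 to 30 counts in the input libraries to 47 to 97 in TRAP. It stayed under 1.2 CPM throughout.

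Within the members the fold change fell with the merged exon length (Spearman rho -0.556 across 50 genes, which share libraries and are not independent replicates), and over all genes with a length it did so less steeply (rho -0.234 across 20866). The median length was 2335 bases for the 14 core genes and 2820 for the 17 regulatory genes. With the length correction the members' median log2 fold change was 0.29 and 32 members were higher.

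Because the core genes were higher together, the promoters of members were searched for 3 short motifs known from proteasome and housekeeping promoters. These were the core of the antioxidant response element bound by factors of the Nfe2 family (TGACNNNGC, where N is any base), the CCAAT box (CCAAT) and the GC box (GGGCGG), each on both strands. RefSeq promoter windows, from 250 bases before to 50 after the start on GRCm38.p6, were found for 42 members. TGACNNNGC was present in 6 members, or 14.3%, and in 12.4% of all 32817 windows. CCAAT was present in 15 members, or 35.7%, and in 37.4% of all windows. GGGCGG was present in 23 members, or 54.8%, among them 10 of 14 regulatory genes and 5 of 11 core genes, and in 35.6% of all windows. A member was counted if any of its windows held the motif. Counted by window, like the background, the shares of the 45 member windows were 13.3% for TGACNNNGC, 33.3% for CCAAT and 53.3% for GGGCGG. The windows of 4 members described here are shown, those of the 2 most abundant constitutive proteases, of Psmb10 and of Psmd2. Capitals mark every match, with CCGCCC being GGGCGG read on the other strand. The window of Psmb5 is chr14:54617946-54618245 on the minus strand, that of Psmb6 chr11:70525107-70525406 on the plus strand, that of Psmb10 chr8:105938343-105938642 on the minus strand and that of Psmd2 chr16:20651402-20651701 on the plus strand.
Psmb5: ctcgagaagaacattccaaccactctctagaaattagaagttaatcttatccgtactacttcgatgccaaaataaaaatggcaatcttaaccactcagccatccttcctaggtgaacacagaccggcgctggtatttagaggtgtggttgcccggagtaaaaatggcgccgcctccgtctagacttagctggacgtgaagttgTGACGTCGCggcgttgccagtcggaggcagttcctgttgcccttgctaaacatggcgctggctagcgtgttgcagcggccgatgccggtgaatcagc
Psmb6: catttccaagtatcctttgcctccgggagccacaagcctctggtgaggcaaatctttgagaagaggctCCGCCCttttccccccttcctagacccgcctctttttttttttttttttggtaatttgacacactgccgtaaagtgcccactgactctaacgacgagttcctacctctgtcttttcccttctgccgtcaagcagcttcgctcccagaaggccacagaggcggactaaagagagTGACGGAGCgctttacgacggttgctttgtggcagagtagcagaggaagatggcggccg
Psmb10: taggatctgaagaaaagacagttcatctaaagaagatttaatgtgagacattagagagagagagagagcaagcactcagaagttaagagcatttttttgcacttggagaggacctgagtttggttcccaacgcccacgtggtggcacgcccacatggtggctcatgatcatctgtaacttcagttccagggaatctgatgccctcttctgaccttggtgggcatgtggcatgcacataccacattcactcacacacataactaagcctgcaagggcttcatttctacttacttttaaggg
Psmd2: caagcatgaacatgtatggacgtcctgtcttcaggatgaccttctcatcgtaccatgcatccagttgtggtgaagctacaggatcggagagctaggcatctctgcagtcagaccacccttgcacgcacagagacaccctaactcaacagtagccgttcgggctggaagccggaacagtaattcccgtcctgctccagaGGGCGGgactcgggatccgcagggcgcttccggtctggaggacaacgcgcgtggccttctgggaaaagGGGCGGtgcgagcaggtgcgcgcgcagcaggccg
The Psmb5 and Psmb6 windows each hold 1 TGACNNNGC match, TGACGTCGC and TGACGGAGC, and the Psmd2 window holds 2 GC boxes. No capitals appear in the Psmb10 window, which says only that these letters are not in it. A match is a description of the sequence and no measured binding site.

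Other genes of the pathway did not rise as a whole. Of 45 tested genes in 6 lists of proteasome partners, 7 were higher and 13 lower in PV TRAP than in the input, beside 27.4% and 27.6% of all genes. Of 6 subunits and assembly factors without a Psm symbol, 2 rose and 2 fell. Pomp, which matures the core particle, was at 320.1 ± 23.4 CPM in TRAP and 133 ± 5.22 in the input (log2 fold change 1.27 ± 0.08 SE, edgeR adjusted p = 1.61e-08), and Sem1, a small subunit of the 19S lid without a Psm symbol, rose by 1.19 ± 0.10 (adjusted p = 2.22e-07). The assembly factor Fbxo7 and Akirin2, which takes proteasomes into the nucleus, were lower, with log2 fold changes of -0.57 ± 0.12 and -0.34 ± 0.08 (adjusted p = 0.00128 and 0.00173). Of 5 proteasome-bound ubiquitin enzymes 2 rose and 1 fell. The deubiquitinase Uchl5 rose by 0.82 ± 0.08 (adjusted p = 6.3e-07), the ubiquitin ligase Ube3c had a log2 fold change of -0.58 ± 0.13 (adjusted p = 0.00152) and the deubiquitinase Usp14 did not pass (0.07 ± 0.13, adjusted p = 0.648). Of 8 regulators of proteasome genes none rose and 3 fell. Nfe2l1, the factor that restores proteasome genes when activity is low, was at 165 ± 7.3 CPM in TRAP and 150 ± 4.95 in the input, which did not pass (adjusted p = 0.222), nor did Nfe2l2 (adjusted p = 0.445) or the ubiquitin receptor Adrm1 (adjusted p = 0.46). Nfe2l3 had a log2 fold change of -1.77 ± 0.46 (adjusted p = 0.00466) and fell, at low levels of 0.428 ± 0.313 CPM in TRAP and 1.45 ± 0.108 in the input. Of 9 genes of antigen presentation none rose and 2 fell, Tap1, by 1.68 ± 0.67, and Irf1, by 0.80 ± 0.26 (adjusted p = 0.0445 and 0.0173). Tap1 was also low, at 0.447 ± 0.422 CPM in TRAP and 1.43 ± 0.374 in the input, and shares exon bases with Psmb9.

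The other comparisons ask whether proteasome genes in PV neurons differed with the outcome of social defeat. They were made among TRAP libraries only, and those of resilient and of susceptible mice against non-defeated mice share the same 4 control libraries. Summed member levels were 7608 ± 390.3 CPM (SD, n = 4) in resilient and 7640.0 ± 383 (n = 3) in susceptible mice, within the spread of the libraries around the non-defeated level given above.

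In resilient against non-defeated mice no member passed the adjusted threshold in edgeR, and neither did any other gene. At an unadjusted p under 0.05, 1 member was higher, where 2.22% of all genes were, and 2 were lower, where 2.16% were. The higher one was the inhibitor Psmf1, at 67.5, 67.6, 67.3 and 58.3 CPM in resilient and 61, 60.6, 56.4 and 50.1 in non-defeated mice, with 1 resilient library inside the non-defeated range (log2 fold change 0.19 ± 0.08). The lower ones were both chaperones. Psmg4 was at 14, 11.2, 14.1 and 12.9 CPM in resilient and 17.9, 17.4, 14.1 and 13.9 in non-defeated mice (log2 fold change -0.28 ± 0.12), and Psmd10, also known as gankyrin, had a log2 fold change of -0.17 ± 0.07 with no overlap between the groups. All 3 adjusted p-values from edgeR were 1.0. The higher count became 0 without resilient library 3, 5 or 7 or non-defeated library 11, and the lower count 0 without resilient library 5 or 8 or non-defeated library 1 or 6 and 4 without resilient library 7. The remaining members named by their p were Psmd3 at 0.13 ± 0.07 and Psmd9 at 0.13 ± 0.07 on the positive side and Psmb7 at -0.13 ± 0.06 on the negative side. Without overlap between the groups, 3 members (6%) were lower, Psma3, Psmd10 and Psmg1, against 1.05% of all genes. In the same way 0 members were higher, against 1.3% of all genes. The core genes had a median log2 fold change of -0.05, with 11 of 14 negative, and the regulatory genes a median of 0.07, with 15 of 17 positive. Over the 18 alternatives 9 to 13 of the core genes were negative and 9 to 16 of the regulatory genes positive.

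In susceptible against non-defeated mice no member passed the adjusted threshold, at which 0.0141% of all genes were higher and 0.0235% lower. At an unadjusted p under 0.05, 5 members were higher, or 10%, where 6.61% of all genes were, and 2 were lower, or 4%, where 6.7% were. The higher count was 3 without susceptible library 4 or non-defeated library 9 and 8 without susceptible library 2, and the lower count was 1 without susceptible library 2 or non-defeated library 9 or 11 and 4 without susceptible library 10 or non-defeated library 1. Psma4 was at 113, 132 and 118 CPM in susceptible and 102, 109, 101 and 101 in non-defeated mice, without overlap (log2 fold change 0.23 ± 0.07 SE, edgeR adjusted p = 0.221). Psmb2 had 0.18 ± 0.06 (adjusted p = 0.27) and the chaperone Psmd9 0.21 ± 0.07 (adjusted p = 0.276), also without overlap. The immunosubunit Psmb9, also among the 5, was at 1.223, 1.435 and 2.808 CPM in susceptible mice. In non-defeated mice it was at 0.8506, 1.074, 0.9611 and 1.305, so the ranges met (log2 fold change 0.80 ± 0.35, adjusted p = 0.349). Leaving out 1 library gave 0.342 to 1.016 for Psmb9. Over all members 8 were higher and 2 lower without overlap, against 4.21% and 4.4% of all genes. The largest difference downward was that of Psma8, at 0.453, 0.447 and 0.397 CPM in susceptible and 1.13, 1.05, 0.845 and 0.659 in non-defeated mice. These were 30 to 33 counts in each susceptible library against 47 to 97, all susceptible libraries below all others of the TRAP set (log2 fold change -1.09 ± 0.32, adjusted p = 0.196). Psmd5 had -0.31 ± 0.12 (adjusted p = 0.326) and Psme3 -0.13 ± 0.07 (adjusted p = 0.43). All 14 core genes had a positive log2 fold change, with a median of 0.10, and 14 of the 17 regulatory genes a negative one, with a median of -0.04. Over the 17 alternatives 11 to 14 of the core genes were positive and 8 to 16 of the regulatory genes negative.

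Susceptible against resilient mice differed most among the stress comparisons, over all genes and among the members. No member passed the adjusted threshold in edgeR, at which 1.02% of all genes were higher and 0.873% lower in susceptible mice. At an unadjusted p under 0.05, 13 members (26%) were higher, where 10.8% of all genes were, and 5 (10%) were lower, where 10.1% were. The libraries did not overlap for 11 members that were higher, against 7.71% of all genes, and 3 that were lower, against 7.44%. The counts changed with the libraries and the tool. The higher count was 5 without the susceptible library numbered 4, 7 without the resilient library numbered 8, 5 with DESeq2 on these groups alone and 4 with edgeR on them alone, and the lower count was 8 without the resilient library numbered 3 and 9 without the susceptible library numbered 10. Red blood cell markers differed in the same comparison, as given above, and the 2 choroid plexus markers summed to 397 to 624 CPM in susceptible, 150 to 394 in resilient and 164 to 276 in non-defeated TRAP libraries. The 3 mural cell markers summed to 12.3 to 15.8 CPM in susceptible, 8.49 to 13.3 in resilient and 6.37 to 9.04 in non-defeated TRAP libraries. The part of these 3 marker sets in the differences was not tested. The only adjustment was a covariate on all other-cell markers together, which cannot separate 1 cell type from another. With the ratio of summed other-cell markers to Pvalb as a covariate, 3 members passed the adjusted threshold, Psmd2 (-0.64), Psmd5 (-0.54) and Psmg4 (0.60), and without the susceptible library numbered 10, Psmd5 and Psmg4 did.

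**Figure D3:**
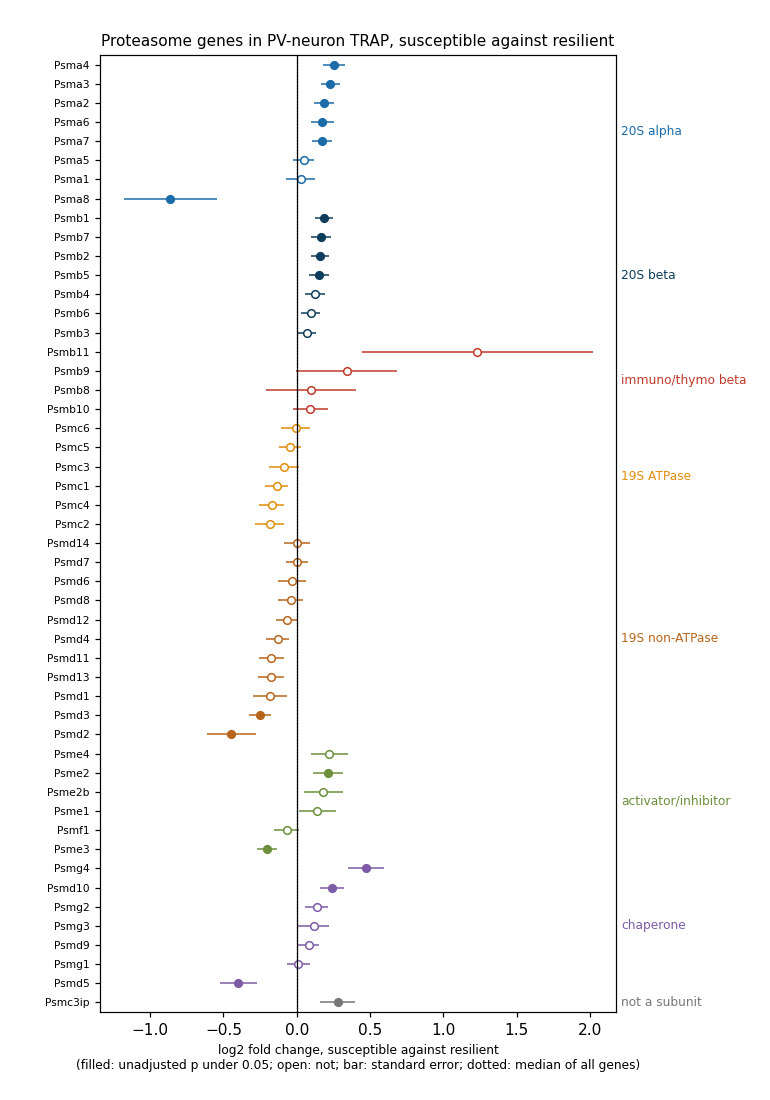
Log2 fold change of each proteasome gene in susceptible (n = 3) against resilient (n = 4) PV TRAP on the horizontal axis. Genes are grouped by class, and bars give the standard error derived from edgeR's F statistic. The 14 constitutive 20S genes lie above 0, from 0.03 to 0.25, and the 17 regulatory genes at or below 0, down to -0.45, with no adjusted p under 0.05.

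The member with the smallest p was Psmg4, part of a chaperone pair for the alpha ring. It was at 17.5, 20.5 and 16.3 CPM in susceptible mice and at 14, 11.2, 14.1 and 12.9 in resilient mice, without overlap, and its non-defeated libraries, at 13.9 to 17.9, overlapped the upper end of the resilient and the lower end of the susceptible values (log2 fold change 0.47 ± 0.12 SE, edgeR adjusted p = 0.0639). Psma4 was at 113, 132 and 118 CPM in susceptible and 98.6, 104, 105 and 98.1 in resilient mice (log2 fold change 0.25 ± 0.07, adjusted p = 0.0765). Psma3 was at 285, 319.6 and 302 CPM in susceptible and 246, 267, 272 and 246 in resilient mice (log2 fold change 0.23 ± 0.07, adjusted p = 0.0767). All susceptible libraries were above all resilient ones for both alpha genes.

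On the lower side stood Psmd3, a non-ATPase subunit of the 19S lid. It was at 212, 219 and 205 CPM in susceptible and 254, 244, 264 and 247 in resilient mice, without overlap (log2 fold change -0.25 ± 0.08, adjusted p = 0.0909). Psme3 was at 133, 149 and 133 CPM in susceptible and 166, 156, 161 and 153 in resilient mice, also without overlap (-0.20 ± 0.07, adjusted p = 0.115). Psmd5 was at 58.8, 64.4 and 79.7 CPM in susceptible and 75.4, 93.8, 99 and 88.7 in resilient mice, where the ranges met (-0.40 ± 0.13, adjusted p = 0.099). Psmd2, at 227, 266 and 336 CPM in susceptible and 314, 379, 432 and 381 in resilient mice, had the largest difference of the 19S genes (-0.45 ± 0.17, adjusted p = 0.155). Among the TRAP libraries, those numbered 7 to 11 also had more Psmd2 than those numbered 1 to 6, by 0.46 in log2 CPM, so its level followed the sample number as well as the group. Within numbers 1 to 6 the difference between susceptible and resilient mice was -0.49 and within 7 to 11, with 1 susceptible library, -0.27.

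Of the catalytic genes Psmb5 had a log2 fold change of 0.15 ± 0.07 (adjusted p = 0.224), Psmb7 of 0.16 ± 0.07 (adjusted p = 0.172) and Psmb6 of 0.09 ± 0.07 (adjusted p = 0.455). Psmb10 was at 131, 134 and 97.5 CPM in susceptible and 128, 109, 102 and 115 in resilient mice, with wide overlap (0.09 ± 0.12, adjusted p = 0.706). Psmb8 and Psmb9 were highest in the libraries numbered 8 and 10, 1 resilient and 1 susceptible. There Psmb8 stood at 5.21 and 5.55 CPM and Psmb9 at 2.13 and 2.81, while the other stressed libraries had 2.21 to 3.23 and 0.849 to 1.82. The direction of both in susceptible against resilient mice turned when the susceptible library numbered 10 was left out. No immunosubunit ratio passed between the TRAP groups in the exact permutation test, with p from 0.0857 to 1.0. With so few libraries that test can give no p under 0.0286. The smallest p was that of Psmb9 to Psmb6 in susceptible against non-defeated mice. That ratio was 0.00229 ± 0.00109 in susceptible and 0.00137 ± 0.000281 in non-defeated mice (SD, adjusted p = 0.343).

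The core and the regulatory genes were also described separately. In this comparison all 14 constitutive core genes had a positive log2 fold change, with a median of 0.16 and 9 of them at an unadjusted p under 0.05, where 10.8% of all genes were higher. All 17 regulatory genes had a negative one, with a median of -0.13 and 2 of them, Psmd2 and Psmd3, at that threshold, where 10.1% of all genes were lower. The other 7 members at that threshold were in neither set, with Psmg4, Psmd10, Psme2 and Psmc3ip higher and Psma8, Psmd5 and Psme3 lower. Over all genes the median was 0.00. This grouping was made after the values were seen and was given no test. Under the 17 alternatives 13 or 14 of the core genes stayed positive and 12 to 17 of the regulatory genes negative.

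The mean log2 CPM of the 14 core genes minus that of the 17 regulatory genes gave 1 value per library. It was 0.0535, 0.0493 and 0.0492 in the input. In TRAP it was 0.486, 0.424, 0.229 and 0.237 in the non-defeated libraries numbered 1, 6, 9 and 11. It was 0.259, 0.241, 0.198 and 0.213 in the resilient libraries and 0.547, 0.531 and 0.425 in the susceptible ones. Every TRAP library thus lay above every input library, and every susceptible above every resilient library. The non-defeated libraries covered most of the range of both, and they divided by sample number, with number 1 among the susceptible values, number 6 just below them and those numbered 9 and 11 among the resilient ones. The labels do not say what the sample number stands for. Several sets of other-cell markers divided these 4 libraries in the same way, and others did not. In numbers 1, 6, 9 and 11 astrocyte markers summed to 164, 165, 231 and 268 CPM and excitatory neuron markers to 709, 788, 927 and 949. Thalamic neuron markers summed to 159.7, 134.4, 447.9 and 310.7, and markers of other interneurons to 620.4, 526, 443 and 421. Not divided in this way were red blood cell markers (149.6, 163.6, 114.5 and 239.5), choroid plexus markers (276.3, 217.9, 164.5 and 217.8) and mural cell markers (6.37, 8.78, 8.37 and 9.04). The part of any of these markers in the difference was not tested. Between libraries numbered 1 to 6 the susceptible minus resilient difference was 0.289 (2 and 2 libraries), and between those numbered 7 to 11 it was 0.219 (1 and 2 libraries). For susceptible against non-defeated mice these differences were 0.0842 and 0.192, and for resilient against non-defeated mice -0.204 and -0.0274. The difference between the medians of core and regulatory log2 fold changes in susceptible against resilient mice, 0.292, was 0.266 with a term for sample number and 0.18 with the length correction.

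**Figure D4:**
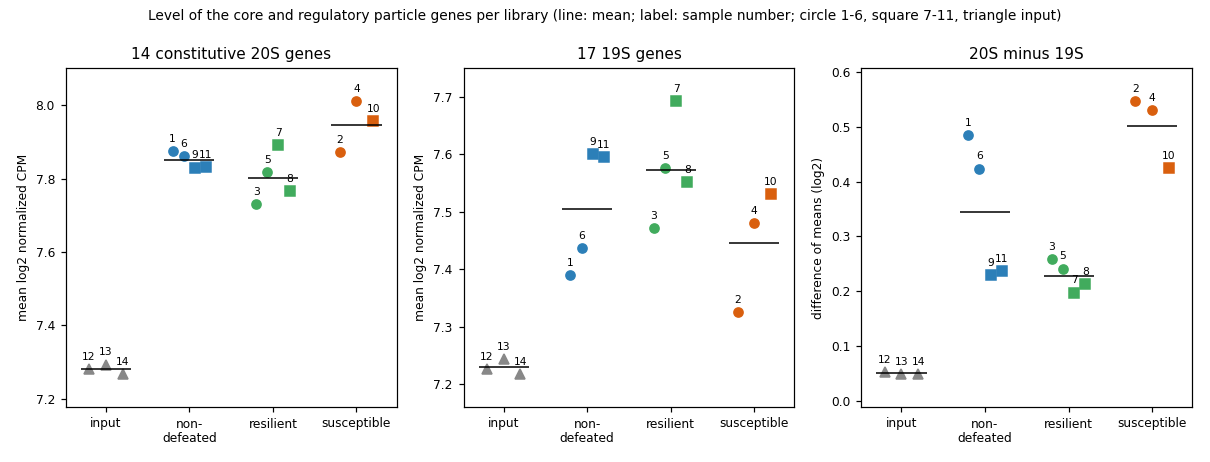
Mean log2 normalized CPM of the 14 constitutive 20S genes (left), of the 17 19S genes (middle) and their difference (right, vertical axes in log2 units) in each library, labelled by sample number, with lines for group means. In the right panel the input lies near 0.05, the resilient libraries between 0.198 and 0.259 and the susceptible ones between 0.425 and 0.547, while the non-defeated TRAP libraries span 0.229 to 0.486.

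Of the 45 partner genes, 2 had a higher and 1 a lower level in susceptible mice than in resilient ones at an adjusted p under 0.05, beside 1.02% and 0.873% of all genes. The 19S lid subunit Sem1 was at 208 ± 13.4 CPM (SD, n = 3) in susceptible and 152 ± 8.75 (n = 4) in resilient mice (log2 fold change 0.45 ± 0.09 SE, edgeR adjusted p = 0.0389), which sets it apart from the 17 regulatory genes with a Psm symbol. Rps27a, which encodes ubiquitin fused to a ribosomal protein, was at 196 ± 14.5 and 135 ± 5.68 CPM (0.53 ± 0.10, adjusted p = 0.0267). Ubqln1, which ferries ubiquitinated proteins to the proteasome, was at 153 ± 11.4 and 219 ± 16 CPM (-0.51 ± 0.11, adjusted p = 0.0427). Pomp (0.15 ± 0.07, adjusted p = 0.266), Adrm1 (-0.21 ± 0.08, adjusted p = 0.156), Nfe2l1 (-0.12 ± 0.09, adjusted p = 0.47) and Nfe2l2 (0.29 ± 0.37, adjusted p = 0.698) did not pass. None of the 45 passed in either comparison with non-defeated mice.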

How the data were processed

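RNA from 11 TRAP and 3 input samples was made into libraries with the SMART-Seq v4 kit, which does not mark strand, and sequenced as 150 bp single reads. The authors trimmed reads with fastp, aligned them to mm10 with STAR (2.5.3a in the submitters' processing notes; the study's methods name another version) and deposited raw counts per gene, with HTSeq named in the same notes. How reads shared by overlapping genes were counted is not given in the sources used here.

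Gene identifiers were named with GENCODE M21 (GRCm38), which covered 37693 of 39017; unnamed identifiers held 0.824% of counts. The deposited counts were fitted with edgeR 4.0.16 (R 4.3.3): TMM factors, filterByExpr at its default minimum count of 10, a quasi-likelihood test over all 14 libraries and Benjamini-Hochberg adjustment over 21298 genes. The test was checked on simulated data. A gene was called at an adjusted p under 0.05. The standard error of a log2 fold change was its absolute value divided by the square root of the quasi-likelihood F statistic. CPM were TMM-normalized and RPKM used merged exon lengths. Mean log2 CPM were taken after a small constant was added to each CPM, and the length and GC offsets used a prior count of 2. Ratios were compared by exact permutation of libraries. Nothing pairs the samples of different groups, and nothing says more of replicates than that each is 1 mouse. The edgeR p-values judge each difference against a spread estimated over all 14 libraries, so the stress comparisons also draw on the input. Summed member levels spread less in the input (SD 44.4 CPM) than in the TRAP groups (169 to 390). The permutation p-values rest on the 2 groups compared. Total counts (64110214 to 94726962) set the counting error, which is largest for the rarest members, Psma8, Psmb8, Psmb9 and Psmb11.

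Members, classes and lists were chosen with earlier results of these data known. Named were the 3 members with the smallest p in each direction of each comparison, the 6 catalytic genes, the highest and lowest RPKM of each class, and Nfe2l1, Nfe2l2, Pomp, Adrm1 and the leading genes of the partner lists; others were chosen after their values were seen. Some genes of the partner lists are not reported here by name. Alternatives were RLE factors, other count filters, gene length and GC offsets, fits on fewer groups, DESeq2 1.42.0 on the 2 groups compared, terms for sample number and for other-cell markers, and leaving out each library.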

Additional observations from a re-analysis of the deposited data

Results flagged for a closer look

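In 7 of 112 groups of 4 values (the members, the immunosubunit ratios and the core and regulatory means, in non-defeated TRAP and in resilient libraries), all 7 of them members, 1 library lay apart from the other 3 by Dixon's test at the 5% level, a rate that chance gives in about 1 of 20 groups. Of the non-defeated TRAP libraries, number 6 had Psma4 at 108.5 CPM with the others at 100.6 to 101.6, and number 11 had Psmb2 at 194.2 with the others at 200.1 to 200.9. Of the resilient libraries, number 7 had Psmc1 at 293.3 (others 252.2 to 257.8), Psmc5 at 455.6 (others 387.3 to 398.9) and Psme1 at 44.87 (others 59.94 to 61.54). Resilient library number 8 had Psmb8 at 5.212 (others 2.691 to 2.953) and Psmf1 at 58.27 (others 67.34 to 67.59). The resilient library number 7, which holds 3 of the 7 values, also had the highest summed thalamic neuron markers, at 738 CPM, and its part in these values was not tested. None of the groups of 3 libraries was tested.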

How the results depend on the processing

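The rise of proteasome genes in TRAP over input kept its direction under all 14 alternatives, with 29 to 37 members higher and 1 or 2 lower, and the 14 core genes were positive in each. The length correction took the members' median log2 fold change to 0.289 and the gap between core and regulatory medians, added after seeing the data, to 0.206 from 0.296, with 1 member in place of 3 lower at an unadjusted p under 0.05. Leaving out 1 library gave 30 to 34 called members, 1 to 2 lower at an unadjusted p, medians of 0.403 to 0.433 and gaps of 0.26 to 0.36. No member was called under the 18 alternatives of resilient against non-defeated mice. There, the higher count at an unadjusted p (1) was 0 with the length correction, with the 2 groups alone in edgeR or DESeq2 and with the TRAP libraries alone, and 2 with the GC correction or the marker covariate. The lower count (2) was 5 with the length correction, 1 without a filter or with the TRAP libraries alone, and 0 with the 2 groups alone or the covariate. Leaving out 1 library gave 0 to 1 higher and 0 to 4 lower, and gaps of -0.158 to -0.0738. In susceptible against non-defeated mice the covariate gave 2 called members (Psmd2 and Psmd5), 9 higher and 7 lower and a gap of 0.223 in place of 0.144. The higher count (5) was 2 with the 2 groups alone, 3 with DESeq2 or the TRAP libraries alone and 3 to 8 without 1 library. The lower count (2) was 4 with the length correction, 1 with at least 10 counts in every library and 1 to 4 without 1 library, where gaps were 0.102 to 0.2. In susceptible against resilient mice the called count (0) was 2 with the length correction (Psma3 and Psmb1), 1 with DESeq2 (Psmg4), 3 with the covariate and 0 to 2 without 1 library. The higher count (13) was 8 without a filter, 4 with the 2 groups alone, 5 with DESeq2 and 5 to 13 without 1 library. The lower count (5) was 11 with the covariate and 4 to 9 without 1 library. Without 1 library the members' median was 0.0234 to 0.0869 (0.0737 with all). The gap was 0.18 with the length correction and 0.25 to 0.335 without 1 library. Fold changes that turned were of members that passed no test. Psmb10 in resilient against non-defeated mice was 0.10 with the covariate and -0.107 to 0.0187 without 1 library. In susceptible against non-defeated mice Psmb10 was -0.0203 with the length correction, -0.00537 with the sample number term and -0.0364 to 0.18 without 1 library, Psmb6 was -0.00549 with the length correction, and Psmb8 was -0.0877 with the covariate and -0.0274 to 0.664 without 1 library. Against resilient mice Psmb8 was -0.205 with the covariate and -0.335 to 0.369 without 1 library, and Psmb9 was -0.114 to 0.592. Log2 differences of immunosubunit ratios in the stress comparisons, over each library left out, were -0.0851 to 0.57 and -0.425 to 0.23 for Psmb8 to Psmb5 (susceptible against non-defeated and against resilient), -0.107 to 0.486 for Psmb9 to Psmb6 (susceptible against resilient), and -0.00775 to 0.155, -0.0876 to 0.172 and -0.171 to 0.0882 for Psmb10 to Psmb7 (resilient and susceptible against non-defeated, and susceptible against resilient). Causes were not tested. No paired analysis was possible because no 2 groups share a sample number.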
